A study of Mus musculus with 11 samples.

Results

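The 10 MHC class II presentation genes were followed in RNA sequencing of macrophages from mice bearing Lewis lung carcinoma (LLC), a mouse lung tumor line: the chains H2-Aa, H2-Ab1 and H2-Eb1, the invariant chain Cd74, the peptide exchange genes H2-DMa, H2-DMb1 and H2-DMb2, the H2-O genes H2-Oa and H2-Ob, and the activator Ciita. They were chosen by name, all 10 were found in both deposited tables, and all 10 passed the filter on low reads in both comparisons. The tables hold 35118 genes for the genotype comparison and 35597 for the comparison of tumor with spleen. Every group came from C57BL/6 mice, 6 to 8 weeks old at inoculation, that carried floxed Sin1 alleles (Sin1fl/fl) and had received the carcinoma cells under the skin 14 days before the organs were taken. Sin1, encoded by Mapkap1, is a subunit of the kinase complex mTORC2. WT_TAM comprised 4 libraries of tumor-associated macrophages from Sin1fl/fl mice without Cre. KO_TAM comprised 4 libraries of the same sorted cells from LysMCre;Sin1fl/fl mice, in which Cre is driven from the Lyz2 locus and so acts in macrophages, monocytes and neutrophils rather than in macrophages alone. WT_SP comprised 3 libraries of splenic macrophages from Sin1fl/fl mice, so the spleen donors also bore tumors. Tumor cells were sorted as CD45+ CD11b+ F4/80+ without Ly6G or Ly6C. Splenic cells were sorted as F4/80+ with low CD11b and without Ly6G, Ly6C or TCRβ, and neither gate as described used a B cell or dendritic cell marker to remove cells. Whether libraries came from different mice is not stated in the labels, so the p-values below reflect spread among libraries that could be technical.

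MHC class II molecules present peptides from the endosomal pathway to CD4+ T cells. In C57BL/6 mice the surface molecule is I-A, made of the H2-Aa α chain and the H2-Ab1 β chain, because this strain has no functional α chain gene for I-E, although it transcribes the I-E β chain gene H2-Eb1. Cd74, the invariant chain, guides class II to endosomes and leaves a fragment in its groove, which H2-M (H2-DMa with H2-DMb1 or H2-DMb2) exchanges for antigenic peptide, while H2-O (H2-Oa with H2-Ob), best known from B cells, inhibits H2-M. Ciita is the coactivator on which transcription of these genes depends, and interferon-γ induces it in macrophages.

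Library totals ran from 7639550 to 13118534 reads, WT_TAM replicate 4 being the shallowest, and 3 reads corresponded to 0.211 to 0.492 CPM (reads relative to library size, the scale used throughout), a limit for counting error only. Mapkap1, the targeted gene, was read in every library, at 71.1, 66.4, 59.7 and 30.7 CPM in WT_TAM replicates 1 to 4, at 44.0, 54.1, 43.3 and 45.9 CPM in KO_TAM and at 60.1, 62.7 and 55.9 CPM in WT_SP in the other table. The genotypes overlapped (limma adjusted p = 0.658), and because the values are per gene, reads from exons outside the deletion are counted too, so the loss of Sin1 rests on the labels here. The labelled cell types were checked against marker lists. In the tumor libraries the 11 macrophage markers dominated, at a summed 9594 to 11730 CPM in KO_TAM and 11909 to 21721 CPM in WT_TAM. In the splenic libraries the 15 B cell markers summed to 16631 to 18208 CPM, against 46.7 to 268 CPM in WT_TAM in the same table, and exceeded the macrophage markers, at 3140 to 3882 CPM. The leading B cell markers there were Ighm, the IgM heavy chain, at 6312 to 7287 CPM, and Cd79a, a chain of the B cell receptor, at 1885 to 2287 CPM. Of the 7 red pulp macrophage markers 6 were called lower in WT_TAM and 0 higher, where 23.6% of all genes were called lower and 23.1% higher. Axl overlapped, at 584 to 665 CPM in WT_TAM and 573 to 706 CPM in WT_SP. Their sum was 862 to 1351 CPM in WT_TAM and 4414 to 4969 CPM in WT_SP. The splenic libraries are thus macrophage libraries by label, and hold B cell transcripts at a higher summed level than macrophage transcripts. In these bulk libraries, fewer cells of a type and less RNA per cell cannot be told apart.

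**Figure D1:**
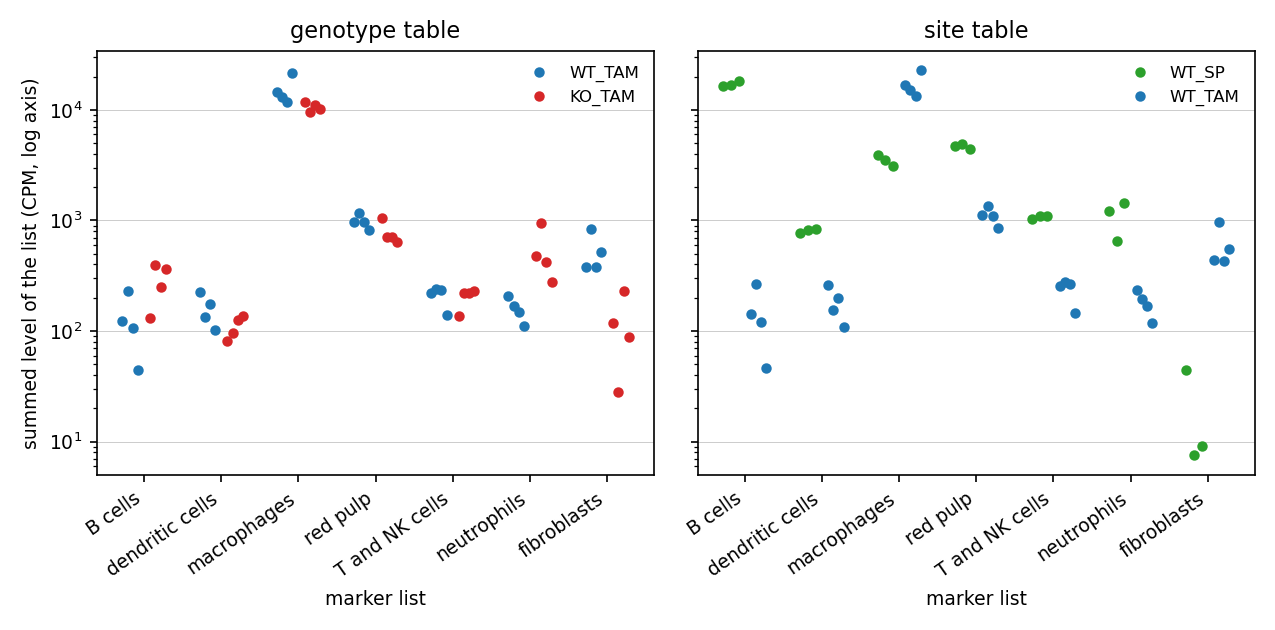
Summed level of each marker list (CPM, log axis) in every library, by group, in the genotype table (left) and the site table (right). In the site table the B cell sums of WT_SP lie between 16631 and 18208 CPM and those of WT_TAM between 46.7 and 268 CPM, while in the genotype table the fibroblast sums of KO_TAM lie below and the neutrophil sums above all WT_TAM libraries.

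Of the members, 8 lie together in the class II region of chromosome 17 (GRCm38, GENCODE M21), from H2-Oa (34092340 to 34095234, plus strand) to H2-Eb1 (34305867 to 34316674, plus strand). Between them come H2-DMa (34119541 to 34139101), H2-DMb2 (34143307 to 34151555), H2-DMb1 (34153072 to 34160230), H2-Ob (34238903 to 34254414) and H2-Ab1 (34257689 to 34269419), all on the plus strand, and H2-Aa (34282744 to 34287823) on the minus strand. Ciita lies on chromosome 16 (10480059 to 10528418, plus strand), and Cd74 is also outside this region. H2-DMb2 and H2-DMb1 are therefore direct neighbours in the same orientation, and they resemble each other: 22.7% of the 50-base words of the H2-DMb1 transcripts are also in H2-DMb2 transcripts, and 21.2% in the other direction. How reads from the shared stretches were counted is not stated in the labels used here.

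Promoters of class II genes carry an X box, bound by the RFX complex, and a Y box, bound by NF-Y, and Ciita docks on these factors. RefSeq promoters (GRCm38.p6; 250 bases before to 50 after the start site) were at hand for 7 members, H2-DMa with a pair of them, and not for H2-Ab1, Cd74 or Ciita. They were searched on both strands for AACNNATG, a core of the X box, and for ATTGG, the Y box, letters chosen with these promoters in view. AACNNATG was in 8.86%, ATTGG in 37.4%, and AACNNATG followed on the same strand within 40 bases by ATTGG in 0.332% of all 32851 promoters. The last arrangement was in the promoters of 4 members, H2-DMb1, H2-DMb2, H2-Ob and H2-Eb1, with 23, 23, 20 and 22 bases between the motifs. H2-Aa and H2-Oa had ATTGG without that core, and of the H2-DMa promoters the downstream of the pair had ATTGG. A match is a description of letters, and no binding was measured. The stretches are shown because H2-DMb1 and H2-DMb2 were called in opposite directions between tumor and spleen, with H2-Ob called lower, H2-Eb1 called higher and H2-Aa not called beside them. Those of H2-DMb1 and H2-DMb2 are cut at 30 bases, before their ATTGG. Both lie before the RefSeq start site used here, but inside the GENCODE gene coordinates given above, which begin further upstream. Capitals mark AACNNATG and ATTGG, and each stretch reads 5′ to 3′ on the gene's strand. They are chr17:34153090-34153119 (plus) for H2-DMb1, chr17:34145119-34145148 (plus) for H2-DMb2, chr17:34238808-34238862 (plus) for H2-Ob, chr17:34305768-34305822 (plus) for H2-Eb1 and chr17:34287857-34287911 (minus) for H2-Aa.
H2-DMb1: ttacctagtAACTGATGatgctaggctgat
H2-DMb2: ttacctattAACCGATGatgctaggctaag
H2-Ob: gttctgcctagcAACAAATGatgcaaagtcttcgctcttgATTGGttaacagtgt
H2-Eb1: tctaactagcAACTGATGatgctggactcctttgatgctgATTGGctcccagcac
H2-Aa: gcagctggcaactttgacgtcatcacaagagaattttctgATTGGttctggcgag

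The H2-DMb1 and H2-DMb2 stretches were identical at 26 of 30 positions, and at 46 of 55 when extended past their ATTGG. They thus share the AACNNATG core and most bases around it.

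Per length, the class II transcripts spanned more than 3 orders of magnitude in control tumor macrophages. In WT_TAM of the genotype table H2-Ab1 stood at 8013 ± 1195 CPM per kb (SD, n = 4) and Cd74 at 7534 ± 1193, and H2-Ab1 exceeded Cd74 in 3 of 4 libraries, so their order was within the spread. H2-Aa followed at 3090 ± 610 CPM per kb and H2-Eb1 at 2687 ± 507, again with overlapping ranges. H2-DMa, at 696 ± 196 CPM per kb, was above H2-DMb1, at 541 ± 86.4, in all 4 libraries, although their ranges overlapped. H2-DMb2 was far lower, at 54.3 ± 12.8 CPM per kb, then Ciita at 14.8 ± 3.48, H2-Ob at 6.74 ± 1.31 and H2-Oa at 4.03 ± 1.00. Ranges did not overlap between Cd74 and H2-Aa, H2-Eb1 and H2-DMa, H2-DMb1 and H2-DMb2, H2-DMb2 and Ciita, or Ciita and H2-Ob. KO_TAM had the same order except that Cd74 (5432 ± 807 CPM per kb) stood above H2-Ab1 (4802 ± 407) in 3 of 4 libraries. In WT_SP, on the scale of the site table, the order was Cd74 (8518 ± 910 CPM per kb, SD, n = 3), H2-Ab1 (5136 ± 240), H2-Aa (2714 ± 125), H2-Eb1 (1909 ± 51.2), H2-DMb2 (632 ± 28.2), H2-DMa (492 ± 23.5), H2-Ob (293 ± 28.5), H2-DMb1 (142 ± 9.46), H2-Oa (136 ± 6.05) and Ciita (63.5 ± 4.61). H2-DMb1 and H2-Oa were the only neighbours there whose ranges overlapped.

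The comparison of KO_TAM with WT_TAM asks how class II transcripts of tumor macrophages differ between mice labelled LysMCre;Sin1fl/fl and mice without Cre. Every member had a lower mean in KO_TAM, with a median log2 difference of -0.63 over the 10 members, beside 0.01 over the 12774 genes tested. None passed limma's test after adjustment over all genes: 0 of 10 members were called lower and 0 higher, where 0% of all genes were called lower and 0% higher. At an unadjusted p under 0.05, 7 of 10 members were lower and 0 higher, where 9.65% of all genes were lower and 8.63% higher. In 4 of 10 members every KO_TAM library lay below every WT_TAM library, which held for 8.71% of all genes, and in 0 members did every KO_TAM library lie above, which held for 6.4%.

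**Figure D2:**
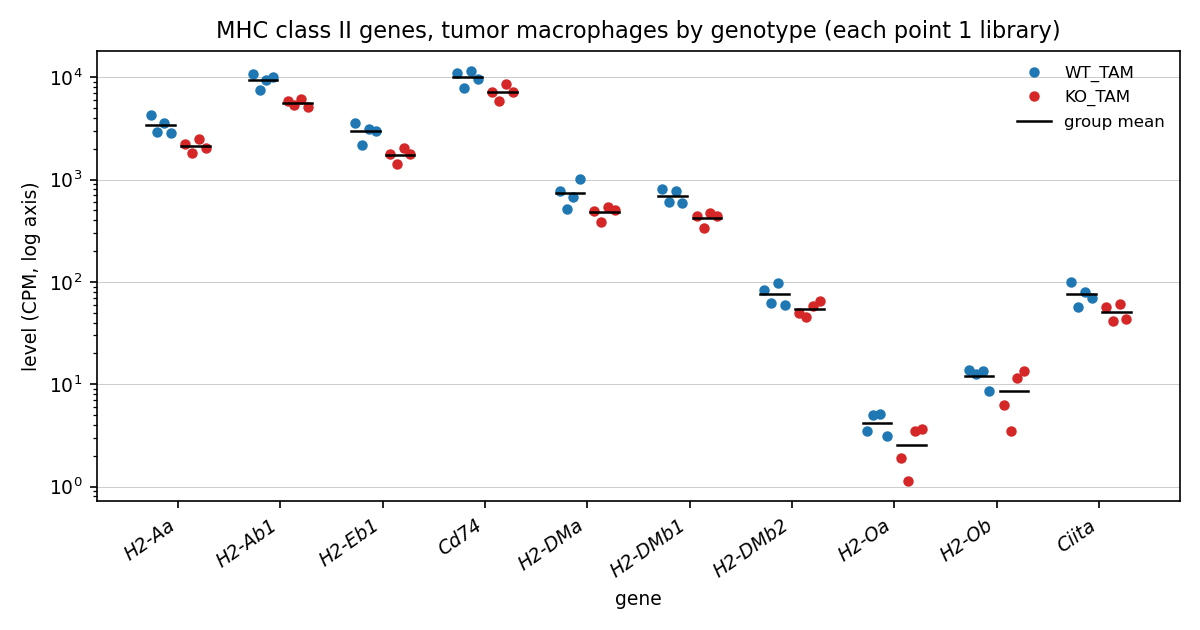
Level of each member (CPM, log axis) in the 4 WT_TAM and 4 KO_TAM libraries, with the group means as bars. The KO_TAM points of H2-Aa, H2-Ab1, H2-Eb1 and H2-DMb1 lie below all WT_TAM points, and those of the other members overlap them.

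H2-Ab1, the β chain of I-A, was at 10770, 7476, 9467 and 9981 CPM in WT_TAM replicates 1 to 4 and at 5869, 5409, 6195 and 5116 CPM in KO_TAM. The groups did not overlap, and replicate 2 was the lowest of WT_TAM. The log2 difference was -0.73 ± 0.17 (SE), a fold of 0.603, with a limma adjusted p of 0.119, the smallest among the members. H2-Aa, the α chain, was at 4279, 2924, 3551 and 2829 CPM in WT_TAM and at 2223, 1809, 2507 and 2027 CPM in KO_TAM. Its groups were also apart, by a narrower margin, with a log2 difference of -0.66 ± 0.19 (limma adjusted p = 0.159). H2-Eb1, whose protein has no α partner in this strain, was at 3538, 2198, 3087 and 3007 CPM in WT_TAM and at 1773, 1411, 2028 and 1793 CPM in KO_TAM. The groups were apart here too, and the log2 difference of -0.75 ± 0.20 was the largest of the 10 (limma adjusted p = 0.133). Cd74 was at 10940, 7913, 11450 and 9614 CPM in WT_TAM and at 7158, 5926, 8542 and 7155 CPM in KO_TAM. KO_TAM replicate 3 exceeded WT_TAM replicate 2, so the groups overlapped, and the log2 difference was -0.47 ± 0.19 (limma adjusted p = 0.238). The ratio of Cd74 to H2-Ab1 within a library, which does not depend on library scaling, was 85.5% to 107% in WT_TAM and 97.3% to 124% in KO_TAM per kb, and overlapped.

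Of the peptide exchange genes, H2-DMb1 was at 811, 608, 775 and 597 CPM in WT_TAM replicates 1 to 4 and at 441, 337, 472 and 445 CPM in KO_TAM. No KO_TAM library reached the lowest WT_TAM library, and the log2 difference was -0.72 ± 0.19 (limma adjusted p = 0.133). H2-DMa, the α chain of H2-M, was at 775, 513, 683 and 1017 CPM in WT_TAM and at 489, 385, 535 and 499 CPM in KO_TAM. Only WT_TAM replicate 2 fell within the KO_TAM range, and the log2 difference was -0.61 ± 0.23 (limma adjusted p = 0.215). WT_TAM replicate 4 was the highest library for H2-DMa and the lowest for H2-DMb1. Without that library the H2-DMa difference was -0.45, and without KO_TAM replicate 2 as well it was -0.35 (limma adjusted p = 0.249). H2-DMb2, the second β chain, was at 83.2, 62.6, 97.1 and 59.4 CPM in WT_TAM and at 49.3, 45.1, 58.1 and 64.5 CPM in KO_TAM. KO_TAM replicate 4 lay inside the WT_TAM range, and the log2 difference was -0.46 ± 0.21 (limma adjusted p = 0.279).

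Ciita was at 99.7, 57.0, 79.7 and 70.0 CPM in WT_TAM and at 56.4, 41.2, 61.4 and 43.2 CPM in KO_TAM. WT_TAM replicate 2 lay below KO_TAM replicate 3, and the log2 difference was -0.59 ± 0.22 (limma adjusted p = 0.222). It lay within the range of the other members, -0.75 to -0.46. The part of Ciita in their differences was not tested. Relative to Cd74 in the same library, Ciita was at 0.178% to 0.233% in WT_TAM and at 0.155% to 0.202% in KO_TAM per kb, with overlap. The H2-O genes had the lowest levels of the 10. H2-Oa had 48, 59, 67 and 20 reads in WT_TAM (3.52, 5.01, 5.17 and 3.10 CPM) and 25, 11, 42 and 41 reads in KO_TAM (1.91, 1.14, 3.51 and 3.62 CPM). H2-Ob was at 13.9, 12.5, 13.4 and 8.68 CPM in WT_TAM and at 6.33, 3.51, 11.4 and 13.4 CPM in KO_TAM. Both overlapped between genotypes, with log2 differences of -0.70 ± 0.36 for H2-Oa (limma adjusted p = 0.317) and -0.60 ± 0.38 for H2-Ob (limma adjusted p = 0.404). Without KO_TAM replicate 2 the differences were -0.43 for H2-Oa and -0.25 for H2-Ob. KO_TAM replicate 2 was the lowest of its group for 9 of the 10 members, and among WT_TAM replicates 2 and 4 were the lowest for 5 members each. The median over the classical chains and Cd74 was -0.69, and -0.65 without KO_TAM replicate 2 and WT_TAM replicate 4, where H2-DMb1 passed the test (limma adjusted p = 0.0488) and the other 9 members did not.

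**Figure D3:**
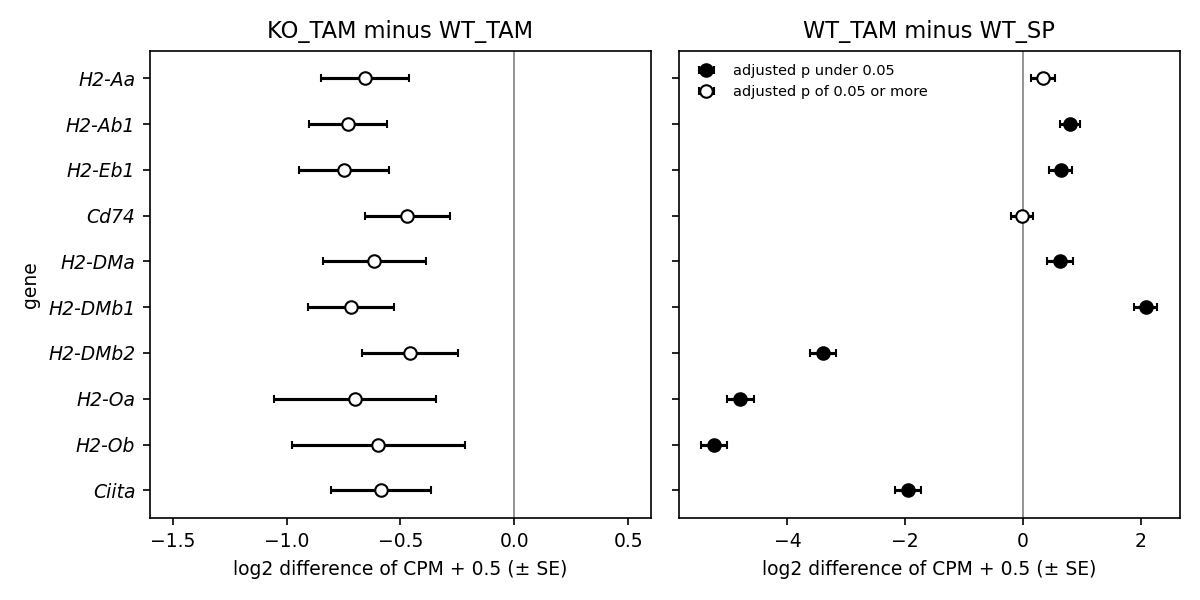
Log2 difference of CPM + 0.5 with its standard error for each member, KO_TAM minus WT_TAM (left) and WT_TAM minus WT_SP (right), on separate horizontal scales. Filled points have a limma adjusted p under 0.05. On the left 0 of 10 points are filled and all lie between -0.75 and -0.46, and on the right 8 of 10 are filled, from -5.24 for H2-Ob to 2.08 for H2-DMb1.

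Other genes of the class II pathway had differences of either sign between genotypes. Of 9 tested, 0 passed the adjusted test, and the median log2 difference was 0.06. At an unadjusted p under 0.05, 2 were lower and 1 higher, where 9.65% of all genes were lower and 8.63% higher. Cd80, a costimulator, stood at 1.31 ± 0.41 (limma adjusted p = 0.172), with every KO_TAM library above every WT_TAM library. Ifi30, the thiol reductase that unfolds antigens in the endosome, stood at -0.81 ± 0.32 (limma adjusted p = 0.231), with overlap. Sppl2a, a protease of the invariant chain remnant, was at 0.33 ± 0.25 and Cd40, a receptor for T cell help, at 0.06 ± 0.19. The proteases Ctss, which trims the invariant chain, at 0.02 ± 0.16, Ctsl at 0.42 ± 0.22 and Lgmn at -0.01 ± 0.20 were near or above 0. Of the transcription and interferon-γ input genes, 12 of 16 could be tested, 0 passed, and the median was 0.07. Spi1, encoding PU.1, had -0.05 ± 0.20, Irf8 had 0.08 ± 0.16, and Rfx5, the DNA-binding RFX subunit, had 0.30 ± 0.41 at 1.24 to 6.74 CPM. The other 4 have genotype table values that are not whole reads, and were left out of this comparison.

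No gene of the marker lists passed limma's adjusted test between genotypes, with any of 3 scalings. The summed levels did not overlap for fibroblasts, neutrophils and macrophages, and overlapped for dendritic cells and B cells. The fibroblast sum was 28.0 to 230 CPM in KO_TAM and 379 to 838 CPM in WT_TAM. The neutrophil sum was 276 to 953 CPM in KO_TAM and 111 to 206 CPM in WT_TAM. Its leading markers were Retnlg, at 146 to 683 and 41.7 to 128 CPM, and Mmp8, at 64.9 to 200 and 14.9 to 53.4 CPM. Csf3r and S100a8 overlapped between genotypes. S100a9, Ly6g and Cxcr2 were too low to be tested, with at most 4.03, 0.152 and 1.91 CPM in any library, so the gap in the sum was not shared by the whole list. The dendritic cell sum over 13 markers was 81.6 to 137 CPM against 103 to 224 CPM. Of its 12 tested markers, 2 were lower and 1 higher at an unadjusted p under 0.05, where 9.65% of all genes were lower and 8.63% higher. C1qb, of the macrophage list, was at 1221 to 2222 CPM in KO_TAM and 2634 to 7669 CPM in WT_TAM, while Cd14 overlapped at 1915 to 2874 and 2159 to 2837 CPM. The median log2 difference of the macrophage list was -0.08, although its sums did not overlap. Of the 11 macrophage markers, 3 were lower and 2 higher in KO_TAM at an unadjusted p under 0.05, beside 9.65% and 8.63% of all genes. The 3 lower ones were C1qa, C1qb and C1qc. The 2 higher ones, identified after their values were seen, were Itgam and Adgre1, which encode the sort markers CD11b and F4/80. Itgam was at 278 to 358 CPM in KO_TAM and 176 to 252 CPM in WT_TAM, and Adgre1 at 590.2 to 1472 and 279 to 614 CPM. The B cell sum was 132 to 396 CPM in KO_TAM and 44.2 to 232 CPM in WT_TAM. The part of these lists in the class II differences was not tested.

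The comparison of WT_TAM with WT_SP asks how libraries labelled as tumor macrophages differ from those labelled as splenic macrophages of tumor-bearing control mice. The splenic ones held B cell transcripts at a higher summed level than macrophage transcripts. Here the members divided: 4 of 10 were called higher and 4 of 10 lower in WT_TAM, where 23.1% of the 14168 genes tested were called higher and 23.6% lower. H2-Ab1, H2-Eb1, H2-DMa and H2-DMb1 were the higher ones, and H2-DMb2, H2-Oa, H2-Ob and Ciita the lower ones, while H2-Aa and Cd74 did not pass. The median over members was 0.16, beside -0.07 over all genes. Some of these calls depend on scaling, although the called members kept their direction under all 16 alternatives. Relative to library totals alone, the median of all genes moved to -0.51, and H2-DMb1 was the only member still called higher. H2-Ab1, H2-Eb1 and H2-DMa then stood at 0.32, 0.16 and 0.15, and H2-Aa turned to -0.14. Cd74 was then at -0.49 (limma adjusted p = 0.0854). The 4 lower calls and that of H2-DMb1 were kept under all 16 alternatives.

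**Figure D4:**
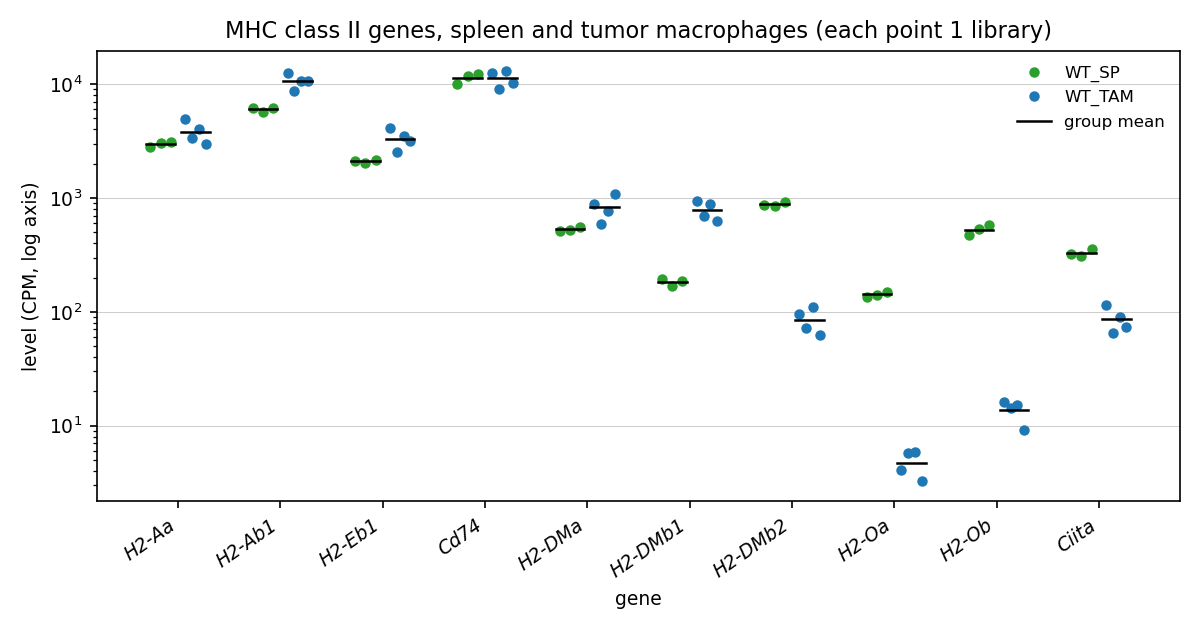
Level of each member (CPM, log axis) in the 3 WT_SP and 4 WT_TAM libraries, with the group means as bars. H2-DMb1 and H2-DMb2 stand in opposite order, at 183 and 879 CPM in WT_SP and at 786 and 85.2 CPM in WT_TAM. H2-Oa and H2-Ob show the widest gaps.

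Among the classical chains, H2-Ab1 was at 6228, 5715 and 6177 CPM in WT_SP and at 12410, 8632, 10720 and 10560 CPM in WT_TAM. All tumor libraries lay above all splenic ones, with a log2 difference of 0.80 ± 0.18 (SE; limma adjusted p = 0.00545). H2-Eb1 was at 2115, 2039 and 2149 CPM in WT_SP and at 4076, 2538, 3496 and 3181 CPM in WT_TAM, again apart, with 0.64 ± 0.19 (limma adjusted p = 0.0246). H2-Aa was at 2826, 3041 and 3082 CPM in WT_SP and at 4930, 3377, 4022 and 2993 CPM in WT_TAM. Tumor replicate 4 lay inside the splenic range, and the difference of 0.34 ± 0.20 did not pass (limma adjusted p = 0.208), whereas without that library it was 0.45 and passed (limma adjusted p = 0.00932). Without tumor replicate 1 it was 0.21 (limma adjusted p = 0.435). Cd74 was at 9926, 11690 and 12230 CPM in WT_SP and at 12610, 9137, 12970 and 10170 CPM in WT_TAM, with overlap throughout and a difference of -0.02 ± 0.19 (limma adjusted p = 0.949). Within a library, Cd74 per kb was 142% to 182% of H2-Ab1 in WT_SP and 85.5% to 107% in WT_TAM, and these ranges did not overlap. H2-Aa per kb was 48.5% to 56.9% of H2-Ab1 in WT_SP and 30.3% to 42.5% in WT_TAM, also apart, while H2-Eb1 was 36.3% to 38.1% and 31.4% to 35.1%.

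The balance of H2-M β chain transcripts differed between the splenic and tumor libraries, which also differed in B cell marker levels. The part of cell composition in this balance was not tested. H2-DMb1 was at 194, 170 and 185 CPM in WT_SP and at 935, 701, 877 and 631 CPM in WT_TAM. The lowest tumor library stood above all splenic ones, with a log2 difference of 2.08 ± 0.19 (limma adjusted p = 3.96e-05), a fold of 4.24. H2-DMb2 was at 860, 853 and 924 CPM in WT_SP and at 95.8, 72.3, 110 and 62.8 CPM in WT_TAM. Here the splenic libraries were all the higher ones, with -3.39 ± 0.22 (limma adjusted p = 5.79e-06), a fold of 0.0952. H2-DMa, their shared α partner, was at 508, 521 and 557 CPM in WT_SP and at 893, 593, 773 and 1076 CPM in WT_TAM, with 0.62 ± 0.22 (limma adjusted p = 0.0449). The groups of H2-DMa did not overlap, but the gap was narrow. H2-DMb2 accounted for 80.4%, 82.3% and 82.2% of H2-DMb1 and H2-DMb2 together per kb in WT_SP. In tumor macrophages it accounted for 8.68%, 8.73%, 10.4% and 8.45% in WT_TAM and for 9.40%, 11%, 10.2% and 11.9% in KO_TAM. This share differed by site far beyond the spread of libraries and overlapped between genotypes. The calls of H2-Eb1 and H2-DMa were lost when WT_TAM replicate 1 or 3 or any WT_SP library was left out, with limma adjusted p of 0.0643 to 0.0898 for H2-Eb1 and 0.0786 to 0.132 for H2-DMa, while the sizes stayed at 0.54 to 0.66 and 0.58 to 0.66.

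H2-Oa was at 136, 141 and 149 CPM in WT_SP and at 4.05, 5.78, 5.86 and 3.28 CPM in WT_TAM, a log2 difference of -4.80 ± 0.23 (limma adjusted p = 1.28e-06). H2-Ob was at 473, 532 and 575 CPM in WT_SP and at 16.0, 14.4, 15.1 and 9.18 CPM in WT_TAM, or -5.24 ± 0.22 (limma adjusted p = 8.44e-07). Both genes were apart by more than an order of magnitude and were the most different members in this comparison. Beside H2-DMa in the same library, H2-Ob per kb was 55.6% to 61.7% in WT_SP, 0.510% to 1.45% in WT_TAM and 0.546% to 1.60% in KO_TAM. The B cell markers had the same direction: 15 of 15 fell in WT_TAM, with a median log2 difference of -7.35. Of all genes tested by site, 23.6% were called lower and 23.1% higher. H2-Ob was equal to 2.84%, 3.18% and 3.16% of the summed B cell markers in WT_SP and to 11.3%, 5.37%, 12.5% and 19.6% in WT_TAM. H2-DMb2 was equal to 5.08% to 5.17% of that sum in WT_SP and to 27.0% to 134% in WT_TAM. The splenic ratios varied little, but so did the splenic B cell sums, at 16631 to 18208 CPM. Those of WT_TAM were higher and varied, over sums of only 46.7 to 268 CPM. In KO_TAM replicates 1 to 4, H2-Ob was equal to 4.78%, 0.887%, 4.60% and 3.65% of that sum. The KO_TAM values for H2-DMb2 were 37.2%, 11.4%, 23.3% and 17.6%. The part of B cells in the splenic levels of H2-Oa, H2-Ob, H2-DMb2 and Ciita was not tested, and B cells also express the classical chains and Cd74. The dendritic cell sum was 775 to 845 CPM in WT_SP and 109 to 258 CPM in WT_TAM, with 8 of 13 markers lower and 1 higher, and its part was not tested either.

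**Figure D5:**
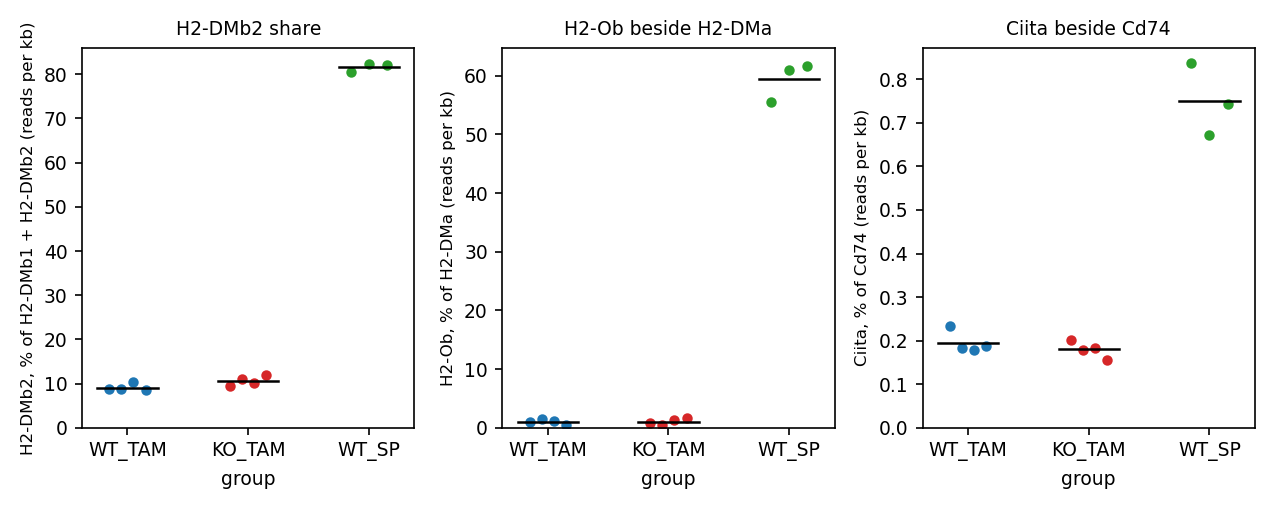
H2-DMb2 as a percentage of H2-DMb1 and H2-DMb2, H2-Ob as a percentage of H2-DMa, and Ciita as a percentage of Cd74, each from reads per kb within 1 library, with group means as bars. The WT_SP libraries stand apart in all 3 panels, and WT_TAM and KO_TAM overlap in each.

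Ciita was opposite in direction to H2-Ab1 and H2-Eb1 between sites. It was at 325, 307 and 354 CPM in WT_SP and at 115, 65.8, 90.3 and 74.1 CPM in WT_TAM, so the splenic libraries were all higher, with a log2 difference of -1.95 ± 0.22 (limma adjusted p = 1.25e-04). Ciita has several promoters with separate first exons, used in dendritic cells, in B cells and after interferon-γ, which values per gene do not separate. Of 16 transcription and interferon-γ input genes tested, 5 fell and 3 rose in WT_TAM, shares near those of all genes (23.6% lower and 23.1% higher). Rfx5 (-2.37 ± 0.47), Nfyb, a subunit of NF-Y (-1.01 ± 0.16), Creb1, which binds the X box region (-0.63 ± 0.21), Irf8 (-0.54 ± 0.15) and the interferon receptor kinase Jak1 (-1.30 ± 0.30) were lower. Spi1 (1.68 ± 0.17), the receptor chain Ifngr2 (1.07 ± 0.16) and Socs1, an inhibitor of interferon signalling (1.80 ± 0.25), were higher. The limma adjusted p of these 8 genes ran from 6.43e-05 to 0.0344. With upper quartile scaling Creb1 and Irf8 kept their direction and did not pass (limma adjusted p = 0.0742 and 0.0626). With the library total alone 7 of these genes were lower, Nfyc and Rfxank in addition, and 3 higher.

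Of 10 other pathway genes tested between sites, 6 rose and 2 fell in WT_TAM, where 23.1% of all genes were called higher and 23.6% lower, and the proteases and the reductase of the endosome were among those that rose. Ctss was at 4900 to 5773 CPM in WT_TAM and 771 to 837 CPM in WT_SP, a log2 difference of 2.71 ± 0.16 (limma adjusted p = 2.63e-06). Ctsl, which processes the invariant chain in thymic epithelium and macrophages, differed by 4.99 ± 0.24 (limma adjusted p = 1.30e-06). Lgmn (2.07 ± 0.20), Ifi30 (1.36 ± 0.23), Sppl2a (0.89 ± 0.30), and Cd80 (2.66 ± 0.45) were higher as well. H2-Eb2, another β chain gene, had at most 0.196 CPM in WT_TAM and 27.6 to 28.5 CPM in WT_SP, and Cd40 stood at -0.52 ± 0.16. All 8 kept their direction under other scalings, but Sppl2a did not pass with the library total alone (0.42; limma adjusted p = 0.311) nor Cd40 with upper quartile scaling (-0.36; limma adjusted p = 0.0947). The macrophage markers themselves rose in 8 of 11 cases in WT_TAM, and the part of cell composition in the endosomal genes was not tested.

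Each gene's similarity to the mean centred log2 level of H2-Aa, H2-Ab1, H2-Eb1 and Cd74 was ranked by Pearson correlation, as a description. Over the 8 tumor libraries of both genotypes, among 12764 genes, the closest were Hpn (r = 0.98), Acsl6 (0.96), Slco2a1 (0.94), Cdc45 (0.93) and Gm4735 (0.93). Without the libraries at the extremes, WT_TAM replicate 1 and KO_TAM replicate 2, the values were 0.97, 0.94, 0.88, 0.91 and 0.91. Over the 7 libraries of the site table, among 14158 genes, the closest included Grasp (0.98), Slc22a18 (0.97), Map3k12 (0.97) and Ric1 (0.97). The libraries share genotype or site, depth and scaling with the classical chains, and the highest of so many correlations over so few points are high by selection.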

How the data were processed

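RNA was sequenced from 11 libraries of sorted macrophages, grouped by the sample titles. The submitters' processing notes name mm10 as the build, and HISAT, HISAT2, TopHat2, HTSeq, SAMtools and DESeq2 without role or version. The values in the 2 tables that the authors deposited are not read counts and were treated as a score. Each equals whole reads divided by gene length, library total and factor, then multiplied by another library's factor. For 12205 genes by genotype and 12492 by site no length was used, and their values, all at or below 0, were read with the sign reversed. Whole reads were recovered within 0.0002 reads or 1e-07 of the read number, whichever was larger. They made up 99.39% to 99.71% of the genotype totals and 99.95% to 99.98% of the site totals. Values that were not whole led to 39 genes being left out of the genotype comparison, none of them a member. The number of unused sample columns was 0.

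CPM, relative to total times the authors' factor, were fitted as log2(CPM + 0.5) with limma 3.58.1 (trend, robust; R 4.3.3), each table separately, with two-sided Benjamini-Hochberg adjusted p over all genes tested and a threshold of 0.05. Low genes change less on this scale than in CPM. A gene was tested with at least 15 reads in total, and with a CPM worth 10 reads in a library of median size in at least n libraries, n being the smaller group's size. Because the deposited unit is not counts, no count model was used. The fit was tested on simulated data with known changes. All members were named; other pathway genes were named if called or among the 3 most abundant, and marker genes mostly as the 2 most abundant. A gene near the top of the ranking by correlation over the site table is not reported here. Replicate numbers showed no pairing of the libraries, which were fitted unpaired. The members and lists were chosen with earlier results of these data known. Alternatives were other scalings, pseudocounts of 0.1 and 2, no filter, voom, array weights, a replicate block, the deposited values and leaving out libraries.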

Additional observations from a re-analysis of the deposited data

How the results depend on the processing

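In KO_TAM against WT_TAM, all 10 members kept a negative difference under all 18 alternatives. Members called lower numbered 0 except 4 with array weights (H2-Aa, H2-Ab1, H2-Eb1 and H2-DMb1) and 1 without WT_TAM replicate 4 and KO_TAM replicate 2 together; leaving out 1 library at a time gave 0. Over all genes those settings called 240 lower and 139 higher, and 44 and 21. In WT_TAM against WT_SP, members called lower numbered 4 throughout. Members called higher numbered 1 with the library total alone, 1 with the deposited values as they stand, and 2 to 5 when 1 library was left out. With the library total alone the median of the classical chains and Cd74 was 0.0126 instead of 0.49, H2-Aa was -0.14, Cd74 was -0.49 and 5490 genes were lower and 2163 higher. Cd74, at -0.02, changed sign with upper quartile scaling (0.14), array weights (0.0046) and leaving out libraries (-0.107 to 0.0759); the cause was not tested. H2-DMa lost its call with no filter (limma adjusted p = 0.064).

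Same-numbered libraries correlated at 0.04, 0.12, -0.16 and 0.20 by genotype and 0.0005, -0.09 and 0.10 by site. No pairing by number was seen, but values from so few libraries cannot exclude it. With the replicate block, members called lower by genotype stayed at 0, and by site members called higher were 5, with H2-Aa at 0.45 and Cd74 at 0.0244. H2-Oa and H2-Ob rest on few reads in the tumor, which limits their precision.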
